A study of Mus musculus with 5 samples.

Results

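The genes described here are 47 mouse genes of meiosis and the germline, followed across 5 microarrays of embryonic stem cells, a hepatoma line and the hybrid cells made by fusing them. The genes were taken by name, and each was matched to the array probes whose record maps to it. Of the 47 genes, 43 were measured, with 60 probes, among 18327 named genes on the array. Sycp3, Hormad2, Piwil4 and Rnf17 had no matched record and were not analysed here. The list was drawn up with the values of these arrays known, from all 5 conditions, so the levels and counts below are descriptions and carry no test.

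Meiosis is the division that reduces the chromosome number, and its machinery is normally used only in germ cells. Cohesin holds sister chromatids together, and the synaptonemal complex joins the homologous chromosomes along their axes. Programmed DNA breaks are made and repaired as crossovers. Small RNAs called piRNAs, assembled in cytoplasmic granules named nuage, keep transposons silent. In somatic cells the promoters of many of these genes are kept silent by DNA methylation and by a Polycomb complex that contains E2f6, Mga and Max, while cultured ES cells are known to transcribe part of the set.

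ES denotes the E14 line of mouse embryonic stem cells, and Hepa1-6 is a mouse hepatoma line. For the fusions, by the methods of the study, the ES cells carried red fluorescent protein and hygromycin resistance and Hepa1-6 carried green fluorescent protein and neomycin resistance. EHe is the line of fused cells, picked as a colony after selection with both drugs and so holding the genomes of both parents and both sets of transgenes. ES and EHe were grown in medium with serum replacement and leukemia inhibitory factor. EHeD7 and EHeD14 are EHe cells after 7 and 14 days of differentiation. By the labels this took place as a monolayer, in a high-glucose medium to which fetal calf serum was added, while the methods of the study describe embryoid bodies and do not say from which culture the array samples came. A like medium was used for Hepa1-6. The medium therefore changed together with the state of the hybrid, and their parts cannot be told apart.

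Each condition was measured on 1 array, so no error between replicates exists and no p-value is given. The number of arrays limits the precision. ES, EHe, EHeD7 and EHeD14 lay on 1 slide and Hepa1-6 on another, so slide and line cannot be told apart in any comparison with Hepa1-6. A level is the log2 signal of a probe relative to the 75th percentile of its array, and it serves to compare arrays for 1 gene, not genes with each other. The median SD between repeated spots of 245 probes lay between 0.072 and 0.101 on the log2 scale, and between 0.124 and 0.150 for dim probes, which covers spot noise within an array only. A gene was counted as different when it was well above background on the brighter array and differed by over 3-fold. Where the dimmer array was not well above background, its signal was raised to the lowest signal called well above background there, and the fold is given as "at least". That lowest level stood at -5.42 and -4.84 in ES and EHe, at -6.16 and -5.55 in EHeD7 and EHeD14, and at -5.29 in Hepa1-6. EHe was thus the array with the least room to show a low value. A gene could be compared when it was well above background on at least 1 of the arrays compared. Where the raised signal of the undetected array exceeded that of the other, the direction of the difference was unknown. Such a gene counted as not different, yet its value entered the medians.

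Most of the genes were detected in the ES cells and the hybrids and few in the hepatoma. Of 43 genes, 39 passed as well above background in ES and likewise in EHeD7, 35 in EHe and likewise in EHeD14, and 11 in Hepa1-6. These were 90.7%, 81.4% and 25.6% of the genes. Among all 18327 genes the shares were 75.9% and 79.4% for ES and EHeD7, 70.3% and 76.5% for EHe and EHeD14, and 65.5% for Hepa1-6. There were 28 genes detected in ES and not in Hepa1-6 and 0 the other way round. Genes detected in only ES or only Hepa1-6 were not counted over all genes. Whether this split is particular to the list is therefore not known. In bulk RNA, fewer cells of a type and less RNA per cell cannot be told apart. The array with the highest of the 5 levels was ES for 19 genes, EHe for 6, EHeD7 for 5, EHeD14 for 5 and Hepa1-6 for 3, counting a gene only where it was detected on that array. The highest array was not counted over all genes, so whether this order is particular to the list is not known.

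**Figure D1:**
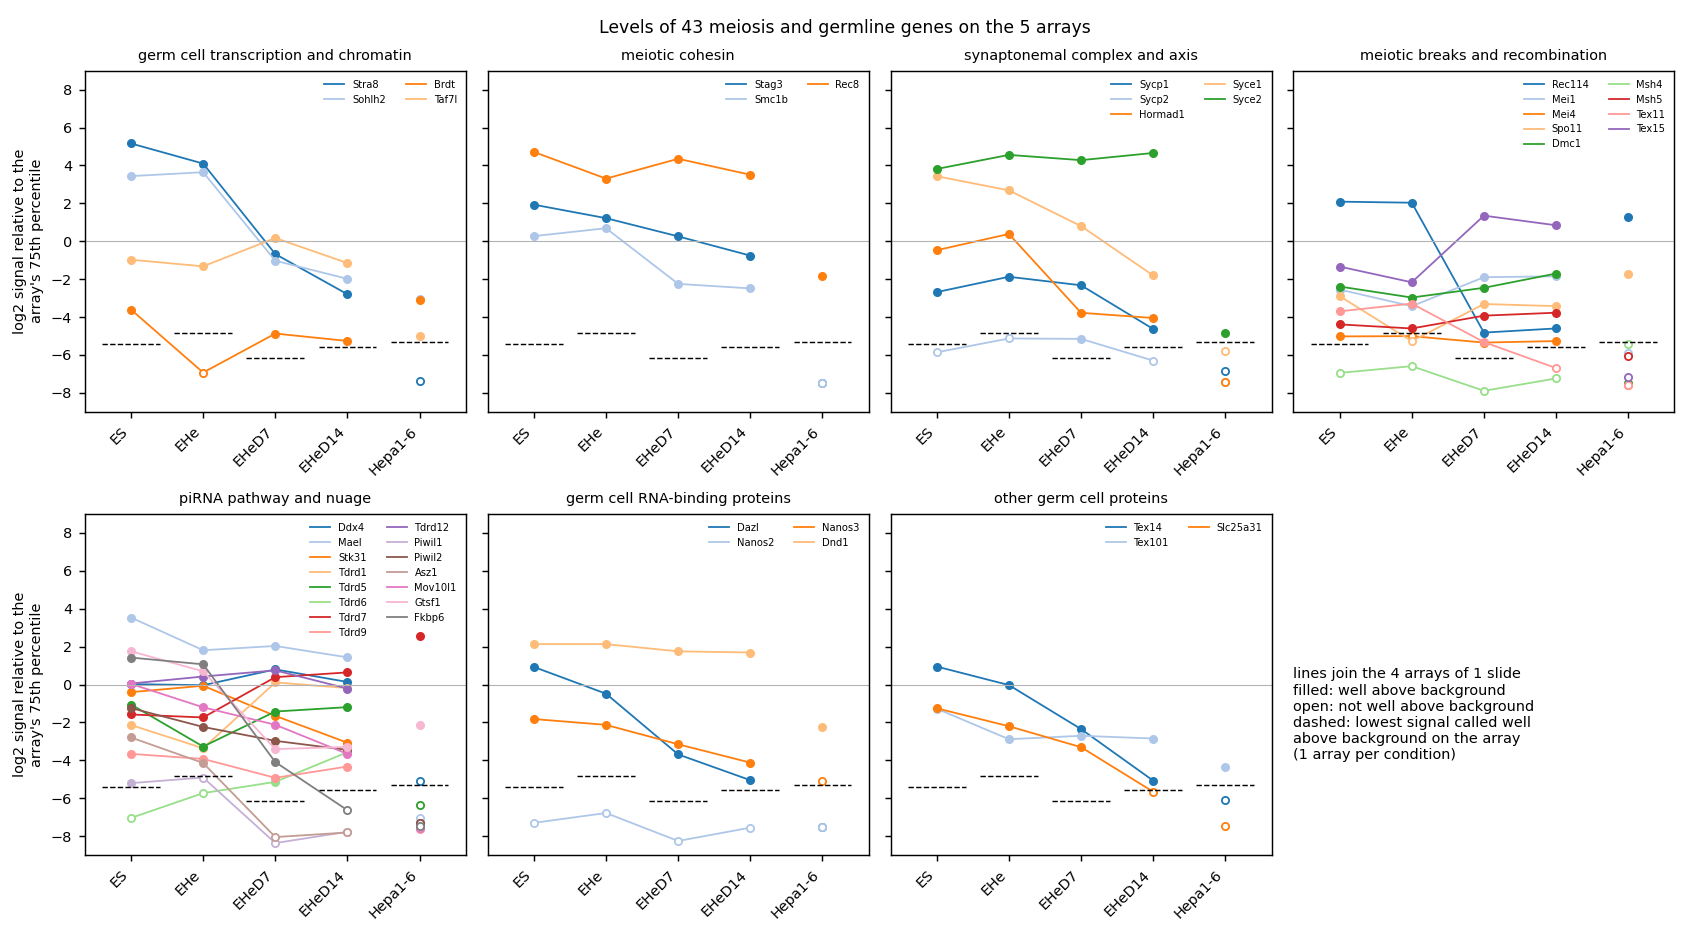
Levels of the 43 measured genes (y axis, log2 signal relative to the 75th percentile of the array) on the 5 arrays (x axis), by role, with 1 array per condition and no error bars. Filled points were well above background, open points were not, and the dashed marks give the lowest signal called well above background, under which most genes lie in Hepa1-6, where 11 of 43 were detected.

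Counted against the ES array, 0 genes passed 3-fold upward and 4 downward in EHe, of 39 that could be compared. Over all genes the shares were 2.58% higher and 3.52% lower. In Hepa1-6 against ES, 1 gene was higher and 32 were lower, of 39, where all genes gave 14% higher and 22.1% lower. In EHeD7 against EHe, 4 genes were higher and 13 lower, of 40, with 7.04% and 4.31% over all genes. In EHeD14 against EHe, 4 were higher and 17 lower, of 39, with 7.28% and 4.76% over all genes. The medians of the log2 differences were -0.58, -4.04, -0.48 and -0.63 in these 4 comparisons in order. For all genes they were -0.13, -0.41, -0.12 and -0.07. Bounds entered these medians at their value. The -4.04 for Hepa1-6 against ES is itself a bound, that of Slc25a31, so the median difference is at least that large. The direction was unknown for Mei4 and Piwil1 in EHe against ES. So it was for Sycp2, Mei4, Tdrd6 and Brdt in EHeD7 against EHe, and for Mei4 and Brdt in EHeD14 against EHe. These genes are within the 39, 40 and 39 above, and such genes are likewise within the shares over all genes. Both differentiated arrays were set against the same EHe array, so their counts are not independent of each other. Between EHeD14 and EHeD7, which do not involve that array, 0 genes were higher and 5 lower, of 39, with 0.517% and 0.674% over all genes.

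The promoters of 40 of the 47 genes were found in the RefSeq table of GRCm38.p6, each as 300 bases from 250 before to 50 after a start. For 16 of them a start was the first base of the annotated gene, and for 24 a longer model of the gene reached further upstream, so that other starts were not searched. They were searched for CACGTG, the E-box bound by Mga with Max, which reads the same on both strands, and for GCGGGA or its other strand TCCCGC, an E2F-type site. The E-box was found in 17 of 40 (42.5%), against 8.09% of 27025 genes in the table. The E2F-type site was found in 15 (37.5%), against 22.05%. The median number of CG pairs was 18, against 8 for all genes. Among the 12388 genes with at least 10 CG pairs, 12.3% held the E-box and 42.7% the E2F-type site, and the 36 listed genes with as many CG pairs gave 47.2% and 41.7%. The share of the listed genes was above that of CG-rich promoters for the E-box and near it for the E2F-type site. Genes that were lower in EHeD14 and genes that were not can be set side by side. Of 16 with a promoter in the table that were over 3-fold lower in EHeD14 than in EHe, 8 (50%) held the E-box and 7 (43.8%) the E2F-type site. Of 15 detected in EHe and not over 3-fold lower, 6 (40%) held the E-box and 7 (46.7%) the E2F-type site. A match of letters is a description and not a binding site.

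Windows of 6 genes are printed below as the 250 bases before the first base of the annotated gene, read 5′ to 3′ on its strand, with E-boxes and E2F-type sites in capitals. They were taken from genes whose window lay outside every annotated gene. They are shown because Sohlh2, Hormad1 and Dazl were over 3-fold lower than EHe at both days of differentiation, Sycp1 and Slc25a31 were so at day 14, and Mael was near its EHe level. No gene that was over 3-fold higher after differentiation had such a window. The windows are chr3:55181794-55182043 (+) for Sohlh2, chr3:102936101-102936350 (-) for Sycp1, chr3:95559427-95559676 (+) for Hormad1, chr17:50293621-50293870 (-) for Dazl, chr3:40708621-40708870 (+) for Slc25a31 and chr1:166238745-166238994 (-) for Mael.
Sohlh2: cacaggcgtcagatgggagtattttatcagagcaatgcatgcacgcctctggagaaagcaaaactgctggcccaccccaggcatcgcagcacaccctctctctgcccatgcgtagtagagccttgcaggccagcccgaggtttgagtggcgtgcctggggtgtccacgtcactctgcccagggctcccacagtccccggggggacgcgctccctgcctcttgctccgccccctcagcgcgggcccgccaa
Sycp1: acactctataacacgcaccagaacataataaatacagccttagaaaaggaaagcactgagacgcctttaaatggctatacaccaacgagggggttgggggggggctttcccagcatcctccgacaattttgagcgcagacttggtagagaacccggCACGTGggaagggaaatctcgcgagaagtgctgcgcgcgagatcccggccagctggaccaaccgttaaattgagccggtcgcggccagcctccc
Hormad1: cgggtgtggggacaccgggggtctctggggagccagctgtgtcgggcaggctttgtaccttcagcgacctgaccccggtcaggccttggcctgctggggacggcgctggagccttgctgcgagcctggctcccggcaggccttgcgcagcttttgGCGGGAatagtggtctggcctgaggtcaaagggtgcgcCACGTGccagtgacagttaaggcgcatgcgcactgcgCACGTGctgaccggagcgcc
Dazl: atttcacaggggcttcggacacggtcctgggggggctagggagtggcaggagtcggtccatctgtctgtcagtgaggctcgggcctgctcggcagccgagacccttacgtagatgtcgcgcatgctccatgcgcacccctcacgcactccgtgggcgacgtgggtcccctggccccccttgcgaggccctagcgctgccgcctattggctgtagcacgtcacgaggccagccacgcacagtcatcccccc
Slc25a31: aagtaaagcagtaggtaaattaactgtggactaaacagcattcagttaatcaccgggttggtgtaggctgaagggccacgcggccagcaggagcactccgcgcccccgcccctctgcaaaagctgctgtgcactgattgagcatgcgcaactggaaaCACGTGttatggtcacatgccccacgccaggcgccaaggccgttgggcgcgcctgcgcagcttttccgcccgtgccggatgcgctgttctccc
Mael: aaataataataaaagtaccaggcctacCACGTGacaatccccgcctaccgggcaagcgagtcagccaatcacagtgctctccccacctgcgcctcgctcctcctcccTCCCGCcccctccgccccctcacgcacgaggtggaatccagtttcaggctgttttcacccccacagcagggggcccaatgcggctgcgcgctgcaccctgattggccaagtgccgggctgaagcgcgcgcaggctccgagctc
The E-box of Sycp1 began 94 bases and that of Slc25a31 93 bases before the start. Hormad1 held 2 E-boxes, at 57 and 20 bases, and an E2F-type site at 95 bases. Mael had an E-box farther off, at 223 bases, and an E2F-type site at 143 bases. Further E2F-type sites began 2 bases after the start in Sycp1, 20 in Slc25a31 and 11 in Mael. These lie beyond the printed bases but within the promoter window used for the shares. Neither motif was in the windows of Sohlh2 and Dazl, which says only that these letters are not there. No printed sites overlap. The printed windows of lower genes thus include some with and some without an E-box, and that of Mael, near its EHe level, has one.

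**Figure D2:**
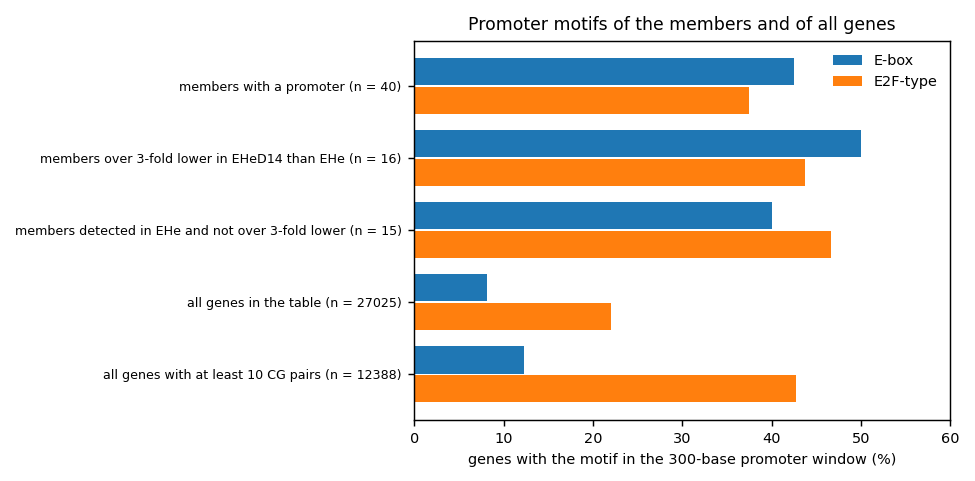
Share of genes (x axis, %) with an E-box (blue) or an E2F-type site (orange) in the 300-base promoter window, for the listed genes, for those over 3-fold lower and not lower in EHeD14 than in EHe, and for all genes. The E-box lies at 42.5% in the listed genes and 12.3% in all genes with at least 10 CG pairs, while the E2F-type site lies at 37.5% and 42.7%.

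Among the regulators of germ cell transcription, the genes that open the meiotic and germ cell programmes were high in ES and EHe and low after differentiation. Stra8, which retinoic acid induces and which germ cells need to enter meiosis, stood at 5.16 and 4.10 in ES and EHe, at -0.68 and -2.80 in EHeD7 and EHeD14, and, without being well above background, at -7.36 in Hepa1-6. It was 2.09-fold lower in EHe than in ES, 27.4-fold lower in EHeD7 and 119-fold lower in EHeD14 than in EHe. Against ES it was at least 1400-fold lower in Hepa1-6. Its level was also 4.35-fold lower in EHeD14 than in EHeD7, and its order over the 4 arrays of the slide was ES, EHe, EHeD7, EHeD14. Sohlh2, a helix-loop-helix factor of early spermatogonia and oocytes, stood at 3.44 and 3.64 in ES and EHe, at -1.03 and -1.98 in EHeD7 and EHeD14, and at -3.04 in Hepa1-6. ES and EHe were close for this gene (1.15-fold), whereas EHeD7 was 25.4-fold and EHeD14 49.4-fold below EHe. Taf7l, a germ cell form of a TFIID subunit, stood at -0.98, -1.32, 0.17, -1.15 and -5.01 in ES, EHe, EHeD7, EHeD14 and Hepa1-6. It was 16.4-fold lower in Hepa1-6 than in ES, and its 2.82-fold higher level in EHeD7 than in EHe fell just short of the 3-fold limit. Brdt, a bromodomain protein of the testis, was below the limit in these comparisons, with its levels between -6.93 in EHe, where it was not detected, and -3.08 in Hepa1-6. Stra8 and Sohlh2 thus separated the undifferentiated from the differentiated hybrid by over 10-fold at each day, while Taf7l did not.

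The 3 subunits of meiotic cohesin, the ring that holds sister chromatids together in meiosis, were each far lower in Hepa1-6 than in ES and differed from one another on differentiation. Smc1b stood at 0.27 and 0.69 in ES and EHe, at -2.25 and -2.49 in EHeD7 and EHeD14, and, without being well above background, at -7.48 in Hepa1-6. It was 7.66-fold lower in EHeD7 and 9.03-fold lower in EHeD14 than in EHe, and at least 47.3-fold lower in Hepa1-6 than in ES. Stag3 stood at 1.93 and 1.22 in ES and EHe, at 0.26 and -0.76 in EHeD7 and EHeD14, and, without being well above background, at -7.48 in Hepa1-6. The difference from EHe was 1.95-fold at day 7 and 3.93-fold at day 14, both lower, so only day 14 passed the limit. Rec8, the cleavable kleisin subunit of the ring, stood at 4.71 and 3.30 in ES and EHe, at 4.35 and 3.51 in EHeD7 and EHeD14, and at -1.81 in Hepa1-6. It was 2.06-fold higher in EHeD7 and 1.15-fold higher in EHeD14 than in EHe. Against ES, Hepa1-6 was 92.0-fold lower for Rec8 and at least 149-fold lower for Stag3.

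The synaptonemal complex is the protein zipper between paired homologues, and its genes differed from one another as well. Syce1, of its central element, stood at 3.43 and 2.68 in ES and EHe, at 0.80 and -1.81 in EHeD7 and EHeD14, and, without being well above background, at -5.80 in Hepa1-6. It was 3.69-fold lower in EHeD7 and 22.5-fold lower in EHeD14 than in EHe, and 6.08-fold lower in EHeD14 than in EHeD7. Syce2, also of the central element, stood at 3.81, 4.55, 4.28, 4.66 and -4.87 in ES, EHe, EHeD7, EHeD14 and Hepa1-6. Its 4 arrays of the slide lay within 1.67-fold of EHe, while Hepa1-6 was 410-fold below ES. Sycp1, the transverse filament, stood at -2.68, -1.88, -2.32, -4.63 and, not well above background, -6.84 in the same order. It was close to EHe at day 7 (1.36-fold lower), 6.75-fold lower at day 14, and 4.94-fold lower in EHeD14 than in EHeD7. Hormad1, which marks unpaired chromosome axes, stood at -0.47, 0.38, -3.78, -4.05 and, not well above background, -7.44. The drop from EHe was 17.9-fold at day 7 and 21.6-fold at day 14. For EHe against ES, the Hormad1 probe used gave a 1.81-fold higher level and the other probe 3.84-fold, so the probes fell on either side of the limit. In Hepa1-6 against ES they gave at least 28.3-fold and at least 2.37-fold lower levels. Sycp2, of the lateral element, was detected in EHeD7 only, near background.

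Among the genes of meiotic breaks and recombination, Rec114 had the largest difference on differentiation and was detected in the hepatoma too. Rec114, part of the machinery that activates the break-making enzyme, stood at 2.09 and 2.03 in ES and EHe, at -4.82 and -4.60 in EHeD7 and EHeD14, and at 1.28 in Hepa1-6. ES, EHe and Hepa1-6 were thus high and the differentiated hybrids low. It was 116-fold lower in EHeD7 and 99.2-fold lower in EHeD14 than in EHe, and 1.75-fold lower in Hepa1-6 than in ES. A second Rec114 probe gave 120-fold at day 7 and at least 212-fold at day 14, both lower.

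Tex15, which acts with Miwi2 in transposon methylation and in the repair of meiotic breaks, was the 1 gene of this group that was over 3-fold higher after differentiation. It stood at -1.34 and -2.17 in ES and EHe, at 1.35 and 0.84 in EHeD7 and EHeD14, and, without being well above background, at -7.17 in Hepa1-6. The level was 11.4-fold higher in EHeD7 and 8.05-fold higher in EHeD14 than in EHe, and at least 15.5-fold lower in Hepa1-6 than in ES. Mei1, needed for break formation, stood at -2.55, -3.43, -1.90, -1.85 and, not well above background, -5.90 in ES, EHe, EHeD7, EHeD14 and Hepa1-6. Its higher level than in EHe, 2.89-fold at day 7 and 2.99-fold at day 14, lay just under the limit. Dmc1, the strand exchange enzyme of meiosis, stood at -2.39, -2.97, -2.46, -1.70 and, not well above background, -7.49. It was within 2.40-fold of EHe on the arrays of the slide and at least 7.48-fold lower in Hepa1-6 than in ES. Tex11, an X-linked crossover factor, stood at -3.70 in ES, -3.29 in EHe, -5.32 in EHeD7 and, not well above background, -6.69 in EHeD14 and -7.60 in Hepa1-6. It was 4.09-fold lower in EHeD7 and at least 4.80-fold lower in EHeD14 than in EHe.

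Spo11, the enzyme that makes the breaks, stood at -2.90 in ES, -3.31 in EHeD7, -3.42 in EHeD14 and -1.74 in Hepa1-6, and was not well above background in EHe, at -5.27. EHe was at least 3.84-fold lower than ES. Hepa1-6 was 2.23-fold higher than ES with this probe, while a second Spo11 probe was detected in Hepa1-6 only, at least 15.7-fold above ES. Msh5, a crossover protein, was detected on the arrays other than Hepa1-6 and lay between -4.60 and -3.77 there. Mei4, a partner of Rec114, was detected in ES, EHeD7 and EHeD14 at -5.35 to -5.02, near background. Msh4, which pairs with Msh5, was detected on no array.

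In the piRNA pathway 15 genes were measured, and 3 were higher and 4 lower in EHeD7, and 3 higher and 4 lower in EHeD14, than in EHe, of 14 that could be compared each time. These were 21.4% higher and 28.6% lower at each day, beside 7.04% and 4.31% of all genes at day 7 and 7.28% and 4.76% at day 14. The 3 higher genes all encode Tudor domain proteins, which bind methylated Piwi proteins and build the granules. Other Tudor genes of the list did not share this. Stk31 was lower past the limit at both days, and Tdrd6, Tdrd9 and Tdrd12 did not pass it. Tdrd1 stood at -2.13 and -3.36 in ES and EHe, at 0.11 and -0.18 in EHeD7 and EHeD14, and, without being well above background, at -7.47 in Hepa1-6. It was 11.1-fold higher in EHeD7 and 9.05-fold higher in EHeD14 than in EHe. A second Tdrd1 probe did not pass the limit, at least 1.95-fold higher at day 7 and at least 1.40-fold at day 14, with EHe not well above background. This probe was detected in Hepa1-6 at -3.91. In Hepa1-6 against ES the probe used for Tdrd1 gave an at least 8.93-fold lower level, and the second a 1.16-fold higher one. Tdrd5 stood at -1.05 and -3.27 in ES and EHe, at -1.42 and -1.19 in EHeD7 and EHeD14, and, without being well above background, at -6.35 in Hepa1-6. It was 4.65-fold lower in EHe than in ES, and 3.60-fold higher in EHeD7 and 4.22-fold higher in EHeD14 than in EHe. EHe was thus the low array of the slide. A second Tdrd5 probe was well above background on no array. Tdrd7, also made in the lens and other tissues, stood at -1.58, -1.74, 0.39, 0.64 and 2.56 in ES, EHe, EHeD7, EHeD14 and Hepa1-6. It was 4.36-fold and 5.19-fold higher at days 7 and 14 than in EHe, and it was the 1 listed gene counted as higher in Hepa1-6 than in ES, by 17.6-fold. Tdrd6 was detected in EHeD7 at -5.14 and in EHeD14 at -3.57 and was at least 2.40-fold higher in EHeD14 than in EHe.

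Fkbp6 and Gtsf1 were the piRNA genes with the widest drop. Fkbp6, a co-chaperone of piRNA loading, stood at 1.42 in ES, 1.07 in EHe, -4.09 in EHeD7 and, not well above background, -6.63 in EHeD14 and -7.46 in Hepa1-6. It was 35.7-fold lower in EHeD7 and at least 98.3-fold lower in EHeD14 than in EHe. Gtsf1, a zinc finger cofactor of Piwi proteins, stood at 1.76, 0.69, -3.41, -3.29 and -2.11 in ES, EHe, EHeD7, EHeD14 and Hepa1-6. The differentiated hybrids were 17.2-fold and 15.8-fold below EHe at days 7 and 14, and Hepa1-6 was 14.6-fold below ES. Stk31, a Tudor protein with a kinase domain, stood at -0.40, -0.06, -1.65, -3.07 and, not well above background, -7.28. It was 3.01-fold lower at day 7, just past the limit, and 8.03-fold lower at day 14 than in EHe. Mov10l1, the helicase that starts piRNA processing, stood at 0.03, -1.20, -2.12, -3.66 and, not well above background, -7.54. It was 1.89-fold lower at day 7 and 5.49-fold lower at day 14 than in EHe. In Hepa1-6 against ES the probe used for Mov10l1 gave at least 40.1-fold lower and a dimmer one at least 1.78-fold. Asz1, which sits on mitochondria beside the granules, was detected in ES at -2.79 and in EHe at -4.14 and not in EHeD7 (-8.05), EHeD14 (-7.80) or Hepa1-6 (-7.53). It was at least 4.05-fold lower in EHeD7 and at least 2.67-fold lower in EHeD14 than in EHe, the second bound being nearer because the lowest detected signal was higher on that array.

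The core nuage genes Ddx4 and Mael differed little between EHe and its differentiated cells. Ddx4, the mouse Vasa helicase, stood at 0.02 and -0.04 in ES and EHe, at 0.80 and 0.14 in EHeD7 and EHeD14, and, without being well above background, at -5.07 in Hepa1-6. It was 1.79-fold higher in EHeD7 and 1.13-fold higher in EHeD14 than in EHe. Mael, a nuage protein needed for transposon silencing, stood at 3.53, 1.81, 2.03, 1.43 and, not well above background, -7.03. It was 3.31-fold lower in EHe than in ES and within 1.30-fold of EHe at both days. Tdrd12, a Tudor helicase, stood at 0.05, 0.42, 0.75, -0.21 and, not well above background, -7.28, within 1.55-fold of EHe at both days. Piwil2, a Piwi protein that binds piRNAs, stood at -1.24, -2.24, -2.97, -3.45 and, not well above background, -7.28. The difference of Piwil2 from EHe was 1.66-fold at day 7 and 2.32-fold at day 14, both lower and under the limit. Tdrd9, a helicase partner of Miwi2, stood at -3.66, -3.92, -4.92, -4.33 and, not well above background, -7.62. Against ES, Hepa1-6 was lower by at least 34.3-fold for Ddx4, 454-fold for Mael, 40.7-fold for Tdrd12, 16.6-fold for Piwil2 and 3.11-fold for Tdrd9. Piwil1, the Piwi protein of later male germ cells, was detected in ES only, at -5.20.

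Of the germ cell RNA-binding proteins, Dazl, which promotes translation in germ cells, stood at 0.93 and -0.48 in ES and EHe, at -3.69 and -5.05 in EHeD7 and EHeD14, and, without being well above background, at -7.54 in Hepa1-6. It was 9.22-fold lower in EHeD7 and 23.6-fold lower in EHeD14 than in EHe. Nanos3, which guards primordial germ cells from death, stood at -1.82, -2.13, -3.15, -4.12 and, not well above background, -5.10 in ES, EHe, EHeD7, EHeD14 and Hepa1-6. It was 2.03-fold lower at day 7 and 3.98-fold lower at day 14 than in EHe. Dnd1, which works with Nanos proteins in early germ cells, stood at 2.13 and 2.13 in ES and EHe, at 1.75 and 1.69 in EHeD7 and EHeD14, and at -2.22 in Hepa1-6. Dnd1 thus lay within 1.36-fold of EHe at both days and was 20.5-fold lower in Hepa1-6 than in ES. Nanos2, of male germ cells and their stem cells, was detected on no array.

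The remaining 3 genes encode proteins of other parts of the germ cell. Tex14, which keeps the bridges between dividing germ cells open, stood at 0.95 and -0.03 in ES and EHe, at -2.35 and -5.07 in EHeD7 and EHeD14, and, without being well above background, at -6.10 in Hepa1-6. Its log2 difference from EHe was -2.32 in EHeD7, and it was 33.0-fold lower in EHeD14 than in EHe and 6.60-fold lower than in EHeD7. These values rest on the probe used, since a second Tex14 probe was well above background on no array. Slc25a31, a mitochondrial ADP/ATP carrier of the germline, stood at -1.25 in ES, -2.20 in EHe, -3.30 in EHeD7 and, not well above background, -5.66 in EHeD14 and -7.47 in Hepa1-6. The drop from EHe was 2.15-fold at day 7 and at least 10.2-fold at day 14, and at least 4.75-fold between the days. Tex101, a surface protein of testis germ cells, stood at -1.27, -2.88, -2.70, -2.85 and -4.35 in ES, EHe, EHeD7, EHeD14 and Hepa1-6. It was 3.05-fold lower in EHe than in ES and within 1.13-fold of EHe at both days.

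**Figure D3:**
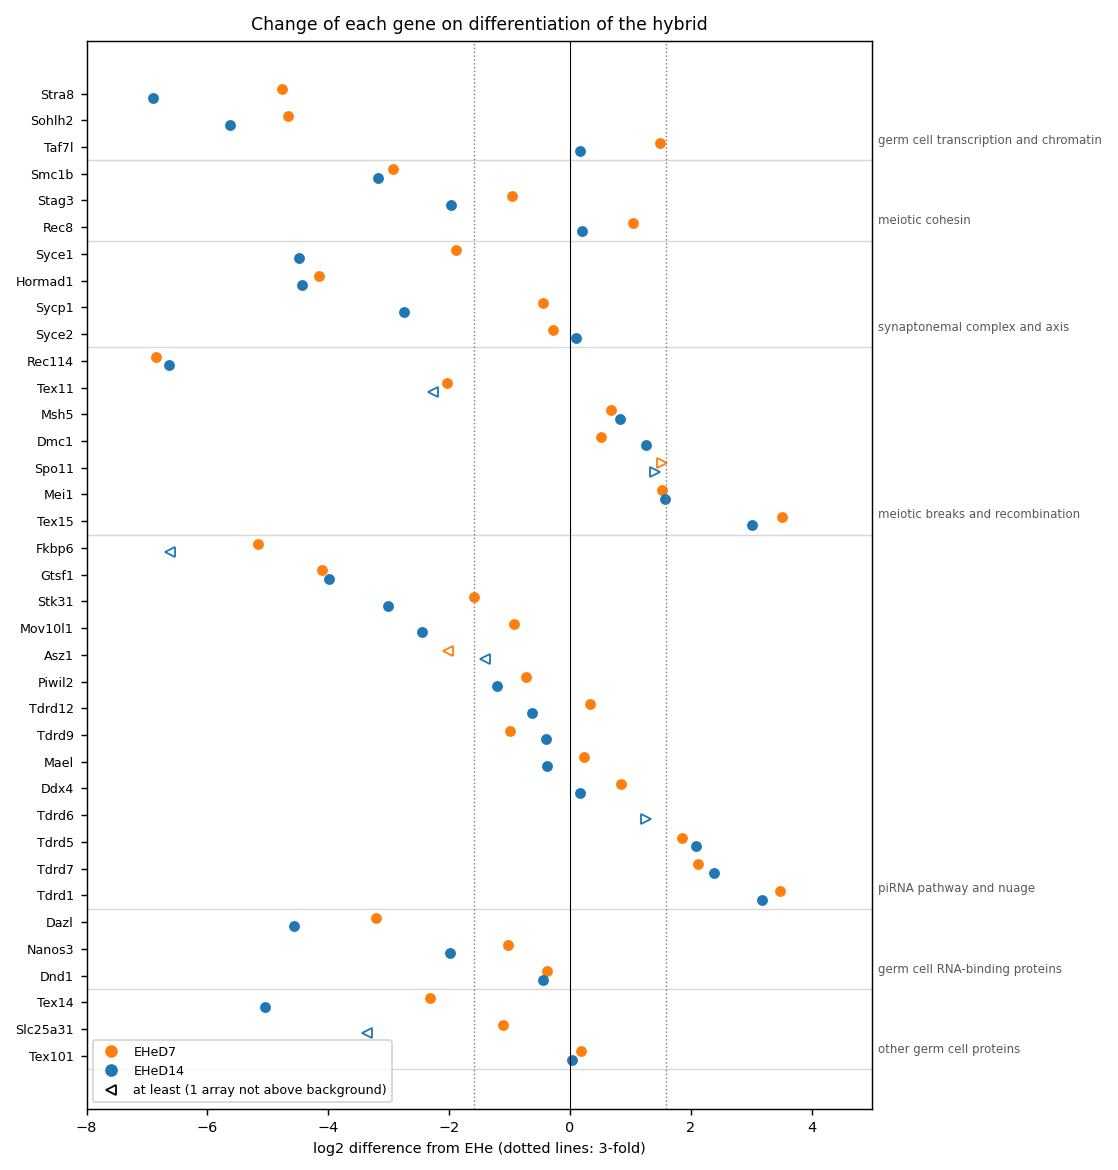
Log2 difference from EHe (x axis) in EHeD7 (orange) and EHeD14 (blue) for each gene with a difference of known direction (y axis, by role). Open triangles are bounds and dotted lines mark 3-fold, with 1 array per condition. Stra8, Rec114, Sohlh2 and Fkbp6 lie farthest to the left, and Tex15, Tdrd1, Tdrd7 and Tdrd5 lie beyond the line on the right.

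The spread of the differences was therefore wide within each role rather than shared by it. From EHe to EHeD14, the synaptonemal genes ran from -4.49 to 0.10 on the log2 scale, the recombination genes from -6.63 to 3.01 and the piRNA genes from -6.62 to 3.18. Of the genes with several probes, 4 had 2 detected in both EHe and EHeD14, and the probes of a gene differed by a median of 0.25 in this log2 difference and by 0.41 at most. Several of the smaller or dimmer differences rest on the background correction or the probe. With normexp correction, the log2 differences from EHe at days 7 and 14 were -0.67 and -1.01 for Tex11 and 1.38 and 1.53 for Tdrd5, under the limit of 3-fold. Those of Stk31 and Asz1 at day 7 were -1.43 and -0.70, and those of Nanos3 and Slc25a31 at day 14 were -1.26 and -1.44. The differences between EHe and ES became -1.27 for Spo11 and -1.31 for Tex101, and those between Hepa1-6 and ES -1.42 for Mei1, -1.30 for Tdrd9 and -1.34 for Tex11. With the mean over the probes of Tdrd5, the differences from EHe were 1.21 and 1.57, that between EHe and ES was -1.39, and that between Hepa1-6 and ES was -1.57, likewise under the limit.

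Set against ES in place of EHe, EHeD14 had 4 genes over 3-fold higher and 21 lower, of 40, with 7.93% and 7.13% over all genes. For EHeD7 against ES the counts were 3 higher and 16 lower, of 41, with 8.03% and 6.9% over all genes. Stra8 was 248-fold lower, Rec114 103-fold lower and Tex14 64.9-fold lower in EHeD14 than in ES, while Ddx4 differed by 1.08-fold.

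**Figure D4:**
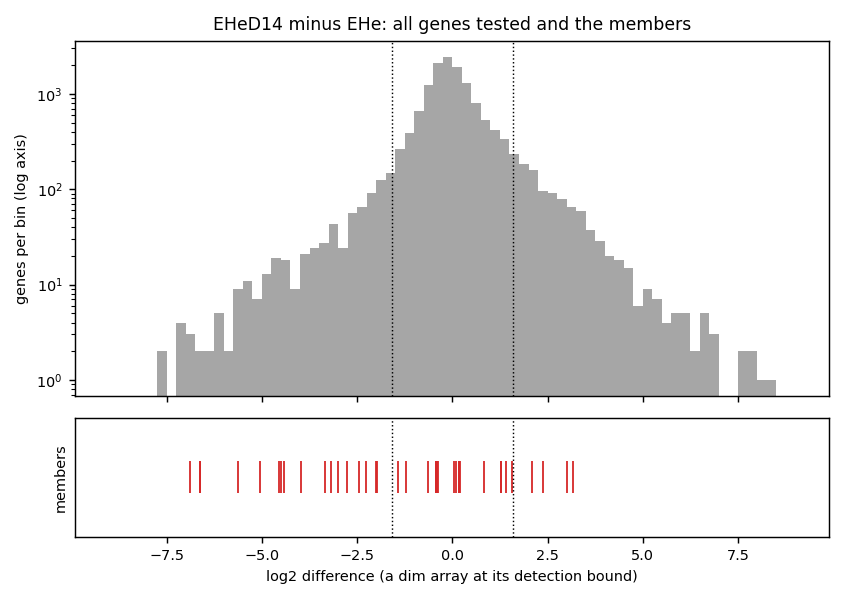
Histogram of the log2 difference between EHeD14 and EHe (x axis) for all 14283 genes compared (upper panel, number of genes per bin on a log axis), with the 39 listed genes as red ticks (lower panel) and dotted lines at 3-fold. The listed genes lie on both sides of 0 and 17 of them lie left of the lower 3-fold line, where 4.76% of all genes lie.

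In the undifferentiated hybrid, the genes were compared with both parents. Of the listed genes, 23 had over 10 times the signal in ES that they had in Hepa1-6, and all 23 were detected in EHe. Their median log2 difference between EHe and ES was -0.75, and between EHe and the mean of the signals of ES and Hepa1-6 it was 0.25. EHe lay above that mean for 15 of the 23 (65.2%) and above ES itself for 6. For 1146 genes of the whole array chosen by the same 10-fold rule, 1121 were detected in EHe, the medians were -0.32 and 0.65, 71.6% lay above the mean and 421 lay above ES. The ES array stands on both sides of this choice, so it is a description. Hormad1 lay highest above the mean of the parents, by 1.84 on the log2 scale, followed by Syce2 (1.74), Smc1b (1.41) and Tdrd12 (1.36). Tdrd5 lay lowest, at -1.25, followed by Mael at -0.73, Rec8 at -0.42 and Dazl at -0.42. Set against Hepa1-6 directly, EHe was over 3-fold higher for 29 genes and lower for 3, of 37, with 19.8% and 14.4% over all genes. The 3 lower genes were Tdrd7 (19.6-fold), Spo11 (at least 8.54-fold) and Brdt (at least 3.38-fold).

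**Figure D5:**
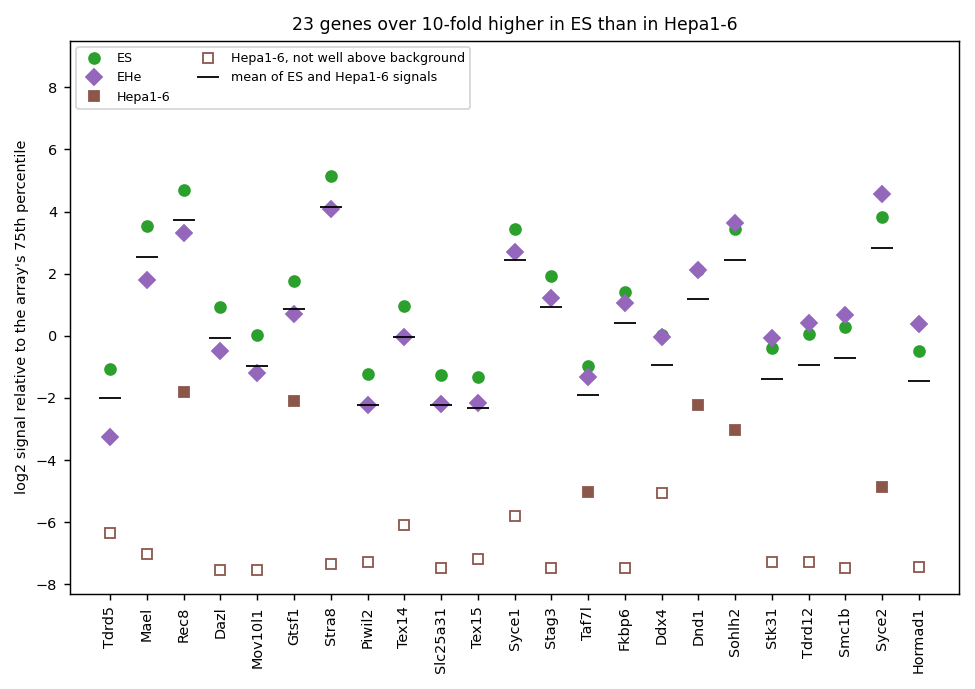
Levels (y axis, log2 signal relative to the 75th percentile of the array) in ES, EHe and Hepa1-6 of the 23 genes with over 10 times the signal in ES than Hepa1-6 (x axis), with bars at the mean of the parents' signals and 1 array per point. The genes are ordered by EHe minus that mean, from Tdrd5 (-1.25) to Hormad1 (1.84), and 15 of 23 lie above it.

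Other germline genes were taken from separate lists. The shares over all genes to set beside their counts are 7.04% higher and 4.31% lower in EHeD7, and 7.28% and 4.76% in EHeD14, than in EHe. Of the further meiosis genes, 0 were higher past the limit and 5 lower in EHeD7, of 22 that could be compared, and 0 higher and 6 lower in EHeD14, of 21. Majin, which ties telomeres to the nuclear membrane, was 12.3-fold lower at day 7 and at least 10.3-fold at day 14. Terb2, its partner, was 7.05-fold and 4.12-fold lower at days 7 and 14. Tex19.1, a regulator of transposons in germ cells and placenta, was 3.23-fold and 7.43-fold lower. Of 7 further piRNA and granule genes that could be compared, 0 were past the limit at day 7 and only Exd1 at day 14, 3.55-fold higher than in EHe, which is near the share over all genes. Among 7 primordial germ cell genes, all of which could be compared, 3 were lower and 0 higher at day 7, and 4 lower and 1 higher at day 14. Tfap2c, a factor that primordial germ cells and trophoblast need, was 14.0-fold and 35.0-fold lower at days 7 and 14. Prdm1, which starts the germ cell fate, was 7.75-fold and 11.7-fold lower. The higher gene was Sox17, by 2.02-fold at day 7 and 4.69-fold at day 14. Lin28a was also higher, by 2.09-fold and 2.38-fold, under the limit. Of the spermatid genes, 7 could be compared at each day, and Prm2 and Ldhc were the 2 lower ones. Of the oocyte genes, 6 could be compared at day 7 and 4 at day 14, and Zp3 and Gdf9 were the 2 lower ones, with Zp3, an egg coat protein, 8.44-fold and 18.1-fold below EHe. With so few genes compared, these counts are values and no more.

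Of 18 genes listed as repressors of germline genes, in whatever cell type they act, all were detected on every array. Over 3-fold differences from EHe were found for Dnmt3b alone, a de novo DNA methyltransferase, which was 5.49-fold higher in EHeD7 and 6.27-fold higher in EHeD14. Its levels were 2.38, 2.02, 4.48, 4.67 and -2.64 in ES, EHe, EHeD7, EHeD14 and Hepa1-6. That 1 of 18 is near the 7.04% and 7.28% over all genes. In Hepa1-6, 6 of these 18 genes were over 3-fold lower than in ES and 0 higher, where 22.1% of all genes were lower and 14% higher, so the count is not read as a result about them. Dnmt3l, at 361-fold, had the largest difference of the 18. Their part in the levels of the germline genes was not tested.

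Markers of several cell types were set beside these results, and only some of them differed on differentiation. The summed signal of 6 ES cell markers, in multiples of the 75th percentile, was 293 and 343 in ES and EHe, 237 and 133 in EHeD7 and EHeD14, and 0.198 in Hepa1-6. Most of each sum was Dppa5a, which was 1.22-fold and 2.42-fold lower at days 7 and 14 than in EHe, under the limit. Of the 6 markers, Sox2, Zfp42 and Esrrb were over 3-fold lower than in EHe at each day. Pou5f1 stood at 3.75, 4.05, 4.41, 4.18 and, not well above background, -6.58. The 5 fibroblast markers were each over 3-fold higher than in EHe at both days, where 7.04% and 7.28% of all genes were. Their summed signal was 1.53, 0.978, 5.32, 5.57 and 0.973 in the same order, with Thy1 the largest part on the arrays of the slide. Pdgfrb was 9.81-fold lower in EHe than in ES. At -1.67 in EHeD7 and -2.18 in EHeD14 it stayed under its ES level of -1.17. Of 7 hepatocyte markers, 5 were detected in Hepa1-6 and only Trf in EHe, EHeD7 and EHeD14, so that Alb and Afp were not well above background in the hybrids, and Ttr and Apoa1 were not in Hepa1-6 either. The summed signal of 5 Sertoli cell markers was 0.312, 0.654, 0.493, 0.354 and 6.18 in the same order. In Hepa1-6 this sum came mainly from Sox9, at 2.25, and Dhh, at 0.36. Gata4 stood at -3.24 there, and Amh and Wt1 were not well above background. Of the Sertoli markers only Wt1 was over 3-fold different from EHe, lower at both days. The part of such shifts in cell make-up was not tested.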

How the data were processed

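Total RNA of 5 cultures was hybridized to Agilent mouse oligo arrays, 1 array per condition, read in 1 channel. The labels name Cy3 and the methods of the study Cy5. The authors deposited for each array the table written by Feature Extraction 10.7.3.1. Used were its processed signals, intensity values that the software had corrected for background and detrended before the authors deposited them, with no normalization between arrays, and its calls of outliers, of saturation and of spots well above background. The deposited series table held the same intensity values (largest relative difference 0). No genome build is needed for these values, and the scanner's mean signal was not used here.

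Control spots and outlier spots (73 to 174 per array) were left out, and 0 spots were saturated. The log2 of each signal was taken, the 75th percentile of its array (1084 to 1445 before the log) was subtracted on that scale, and repeated spots were averaged. A probe was well above background when at least 50% of its spots were. Of 41174 probes, 26888 were named by matching the probe's record to RefSeq accessions (GRCm38.p6). A gene took the value of its probe detected on most arrays, then of the highest mean; 16 listed genes had several. Values on all arrays were given for genes over 3-fold different in at least 1 of the 4 main comparisons (35 genes), and the others by range. Of the 10 other lists, at most 6 genes each were named. The listed genes, the other gene lists and the comparisons were chosen with earlier results of these data known, and the comparison with the mean of the parents was added after values had been seen. With 1 array per condition no test was made. The procedure was checked on simulated arrays, each made from the EHe levels with random noise added. Only probes that were detected in EHe and not dim were changed, in the array standing for EHeD14. There 200 of 200 probes raised 8-fold and 200 of 200 lowered 8-fold were found, with 0 calls among the 40774 others. Changes so large in bright probes were bound to be found, so the check does not cover dim signals or differences near 3-fold. Python 3.11.15, numpy 2.4.6, pandas 2.3.3, matplotlib 3.10.9, R 4.3.3 and limma 3.58.1 were used. The alternatives were normexp background correction (offset 50, on the median spot signal), quantile normalization, median centring, the series table, signals not raised to the detection bound, a filter on both arrays, and the mean of a gene's probes.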

Additional observations from a re-analysis of the deposited data

How the results depend on the processing

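Of 68 list counts and medians recomputed under alternatives, 54 stayed within 1.5-fold (counts) or the spot SD of 0.101 (medians), 14 moved and 0 changed direction. Under normexp, 2 genes were lower in EHe than in ES in place of 4, and the medians were -0.46 for EHe against ES, -2.63 for Hepa1-6 against ES and -0.33 for EHeD7 against EHe. Under median centring, 2 genes were higher in Hepa1-6 than in ES in place of 1, and the medians were -0.47, -3.27, -0.66 and -0.79 in the 4 comparisons. This centring moved the median of all genes by 0.11, 0.77, -0.18 and -0.16, and the shares of all genes higher and lower were then 3.22% and 2.83% for EHe against ES (2.58% and 3.52% before) and 22.8% and 12.8% for Hepa1-6 against ES (14% and 22.1% before). Quantile normalization gave medians of -3.32 for Hepa1-6 against ES, with all genes moved by 0.27, and -0.69 for EHeD7 against EHe. With signals as measured, 7 genes were higher in EHeD14 than in EHe in place of 4. With both arrays required to be above background, 7 genes were lower in Hepa1-6 than in ES in place of 32, since fewer could be compared. With the mean of a gene's probes, 2 were higher in Hepa1-6 than in ES. For single genes, 237 of 495 values stayed and 1 turned, that of Spo11 in EHe against ES, to 0.24 with the mean of its probes. Of 75 single-gene differences over 3-fold, 23 losses were counted over the alternatives, 13 under normexp, 5 with the mean of probes, 3 under median centring, 2 under quantile normalization and 0 with the series table and with signals as measured. With both arrays required to be above background, 45 of the 75 could be compared, with 0 lost among them, and 30 could not. Those under quantile normalization were Tdrd9 (-0.69) and Tex11 (-0.64) in Hepa1-6 against ES. Those under median centring were Tdrd9 (-0.87) and Tex11 (-0.83) in Hepa1-6 against ES and Tex101 (-1.50) in EHe against ES. The cause was not tested. Dim signals limit the folds, since 28 genes detected in ES have only a bound in Hepa1-6. No paired analysis was possible because no condition has more than 1 array.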
